A study of Mus musculus with 33 samples.

Results

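ProNeu2 cells are the later of 2 early committed neutrophil progenitor stages of mouse bone marrow, and their messenger RNA was compared between septic and control mice. The comparison rests on 6 of the 33 bulk RNA libraries of the series, chosen by their cell type labels, with 3 libraries of sepsis proNeu2 and 3 of control proNeu2, and it was read across all 18198 genes that passed the filter on low counts. Sepsis was induced by mid-grade caecal ligation and puncture (CLP), a surgical opening of the gut that causes abdominal infection, and bone marrow was taken 3 days later. The controls were wild-type mice sorted with the same gates, and a sham operation is not named in the sources used here, so surgery and infection cannot be told apart. Age, sex and strain are not given in the labels. Ly6C-negative granulocyte-monocyte progenitors (Ly6C- GMP), proNeu1 and preNeu cells from septic and control mice, with 3 libraries in each of these groups, served to ask whether a change in proNeu2 differed from that in the neighbouring stages.

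Neutrophils are made in the bone marrow along a path on which granule proteins appear in a fixed order. Azurophil granule proteins such as myeloperoxidase and elastase are made first, by promyelocyte-like progenitors, and specific and gelatinase granule proteins such as lactoferrin and lipocalin follow under the transcription factor C/EBP epsilon. In severe infection this output is raised in a program called emergency granulopoiesis, in which the cytokines G-CSF and IL-6 act through STAT3 and C/EBP beta is known to take over from C/EBP alpha.

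Library totals, in units of 1000000 counts (Mcounts), were 17.36 to 22.9 in sepsis and 19.99 to 20.97 in control proNeu2 cells, so that none was among the 5 shallow libraries of the series, which had under 10 Mcounts. Levels are given as CPM, the counts of a gene per 1000000 counts of its library after scaling of library sizes. In a single proNeu2 library the smallest level that 3 counts allow was 0.131 to 0.173 CPM, which covers counting error only. Mitochondrial genes took 1.297% to 2.4% of counts in sepsis libraries and 1.4% to 1.817% in control libraries. The 10 most abundant genes took 7.5% to 8.4% in sepsis libraries and 12.5% to 13.2% in control libraries. Pearson correlations of log2 CPM were 0.9609 to 0.9651 among sepsis libraries, 0.9447 to 0.9527 among control libraries and 0.9253 to 0.9408 between the groups. The first principal component of the 6 libraries held 37.7% of the variance and placed sepsis libraries at -69.98 to -61.67 and control libraries at 49.67 to 97.89. On the second component, with 19.6%, control replicate 2 lay at 83.94 and the other control libraries at -70.47 and -47.15. The markers were those of early neutrophil progenitors: Mpo and Elane were the leading azurophil genes in all 6 libraries, the mature neutrophil marker Ly6g averaged 0.59 CPM in sepsis and 0.704 CPM in control libraries, and the monocyte and dendritic factor Irf8 averaged 4.75 CPM in sepsis and 5.63 CPM in control libraries. In control cells the levels of azurophil genes as a list overlapped between proNeu1 and proNeu2, so they do not tell these stages apart.

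Septic proNeu2 cells differed from control cells in 3097 genes, 17.0% of those tested (edgeR quasi-likelihood test, Benjamini-Hochberg adjusted p under 0.05). Of these, 1719 genes (9.45% of all tested) were higher in sepsis and 1378 (7.57%) were lower. A change of at least 2-fold was seen for 770 higher and 699 lower genes, and of at least 4-fold for 285 higher and 201 lower genes. The 3 sepsis and 3 control values did not overlap for 6128 genes, 33.7% of those tested. A test against a fold change of 1.5 called 802 genes, and leaving out control replicate 2 left 2060 calls. The median log2 fold change over all genes was 0. Because these are bulk samples of a sorted gate, fewer cells of a type and less RNA per cell cannot be told apart.

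**Figure D1:**
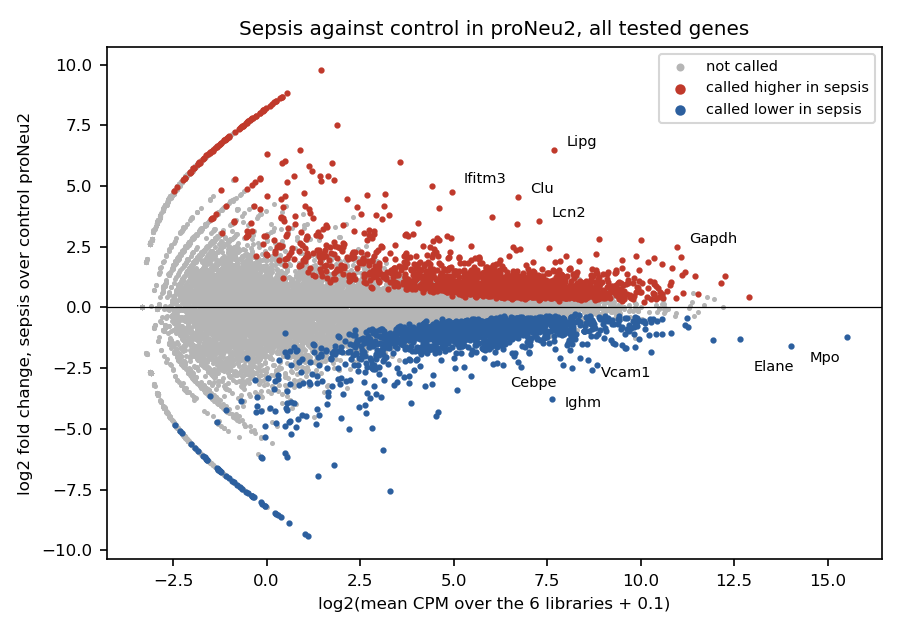
Log2 fold change of each of the 18198 tested genes, sepsis over control proNeu2, against its log2 mean CPM over the 6 libraries with 0.1 CPM added; red and blue points are the 1719 genes called higher and the 1378 called lower. The curved bands at the left edge are genes with no counts in one of the groups, and the 2 most abundant labelled genes, Mpo and Elane, lie below 0.

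The largest rises took in genes of secreted proteins, membrane receptors and the Ifitm family. Among genes averaging at least 20 CPM in one of the groups, Lipg, which encodes an endothelial-type phospholipase that acts on lipoproteins, led with 296.1, 476.9 and 450.6 CPM in sepsis libraries, against 3.07, 3.57 and 7.17 CPM in control libraries. Its log2 fold change was 6.47 ± 0.53 (SE; adjusted p = 1.75e-09). Clu, the chaperone clusterin, stood at 179.4, 228.7 and 197.7 CPM in sepsis and at 6.72, 6.43 and 12.8 CPM in control libraries (4.54 ± 0.63). Il1r2, the decoy receptor that binds interleukin-1 without signalling, stood at 90.9, 259.9 and 215.7 CPM in sepsis and at 12.5, 22.8 and 17.4 CPM in control libraries (3.43 ± 0.50). Every sepsis value of these genes lay above every control value, which the choice of these genes required.

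Ifitm1, Ifitm3 and Ifitm6, neighbouring interferon-inducible genes whose membrane proteins restrict virus entry, rose together. Ifitm3 (chromosome 7, 141009586 to 141010770, GRCm38) was at 37.5, 58.4 and 82.1 CPM in sepsis libraries and at 2.88, 0.765 and 2.88 CPM in control libraries (4.76 ± 0.31, adjusted p = 7.14e-11). Ifitm1 averaged 23.1 ± 6.44 CPM in sepsis and 0.36 ± 0.289 CPM in control libraries (SD, n = 3 each), a log2 change of 5.97 ± 0.41. Ifitm6 was lower in sepsis replicate 1 than in the other sepsis libraries, with 8.76, 31.2 and 29.1 CPM in sepsis, against 3.65, 1.84 and 3.13 CPM in control libraries (2.99 ± 0.44). These are related genes, and reads shared between them were counted in a way the sources used here do not give. The 12 largest rises also took in Nrp2, a co-receptor of semaphorins and vascular growth factors (5.01 ± 0.58), Csf2rb2, the beta chain of the mouse interleukin-3 receptor (4.09 ± 0.43), Emilin2, an extracellular matrix glycoprotein (3.72 ± 0.31), Lcn2 (3.55 ± 0.33), the linker histone gene Hist1h1c (3.47 ± 0.46) and Milr1, an inhibitory receptor first described on mast cells (3.03 ± 0.24). Csf2rb2 and its near-identical neighbour Csf2rb, the shared beta chain of the interleukin-3, interleukin-5 and GM-CSF receptors, may share reads, and Csf2rb rose as well.

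The largest falls mixed immunoglobulin constant regions with genes of less well described roles in neutrophils. Ighm, which encodes the heavy chain of IgM, was at 48.7, 17.8 and 14.7 CPM in sepsis libraries and at 347.1, 404.6 and 363.2 CPM in control libraries, a log2 change of -3.78 ± 0.57 (adjusted p = 2.31e-05). Klhl3, a substrate adaptor of a ubiquitin ligase, was at 4.01, 0.83 and 1.92 CPM in sepsis libraries and at 35.9, 65.1 and 35.0 CPM in control libraries (-4.31 ± 0.84). C1qtnf12, a secreted protein of the C1q and TNF family, was even within both groups, with 7.98, 12.8 and 11.4 CPM in sepsis and 80.6, 74.9 and 74.6 CPM in control libraries (-2.84 ± 0.23, adjusted p = 1.75e-09). Prss34, a mast cell and basophil protease, was at 5.57, 1.78 and 2.78 CPM in sepsis and at 21.1, 30.9 and 20.9 CPM in control libraries (-2.83 ± 0.58). The transcriptional repressor gene Zbtb20 (-3.14 ± 0.44), the interferon-inducible gene Ifi27 (-2.77 ± 0.30), the growth factor gene Gdf3 (-3.23 ± 0.78), Ppp1r35 (-3.11 ± 0.67), the class I histocompatibility gene H2-Q6 (-2.87 ± 0.60) and Rmi2, a subunit of a complex that dissolves DNA crossovers (-2.72 ± 0.64), were also among the 12.

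A pair of the 12 largest falls turned on single libraries. Thbs1, which encodes thrombospondin, was at 1.46, 1.42 and 3.1 CPM in sepsis and at 120.9, 8.42 and 3.74 CPM in control libraries (-4.46 ± 1.27, adjusted p = 0.0136). Only control replicate 1 was high, and without it the adjusted p was 0.404; without sepsis replicate 1 or 2 it was 0.0618 and 0.0697. Igkc, for the kappa light chain, was at 2.97, 2.13 and 0.274 CPM in sepsis and at 13.9, 59.6 and 7.72 CPM in control libraries (-3.93 ± 1.17). Without control replicate 2 its adjusted p was 0.183, and without sepsis replicate 2 or 3 it was 0.0641 and 0.0975.

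**Figure D2:**
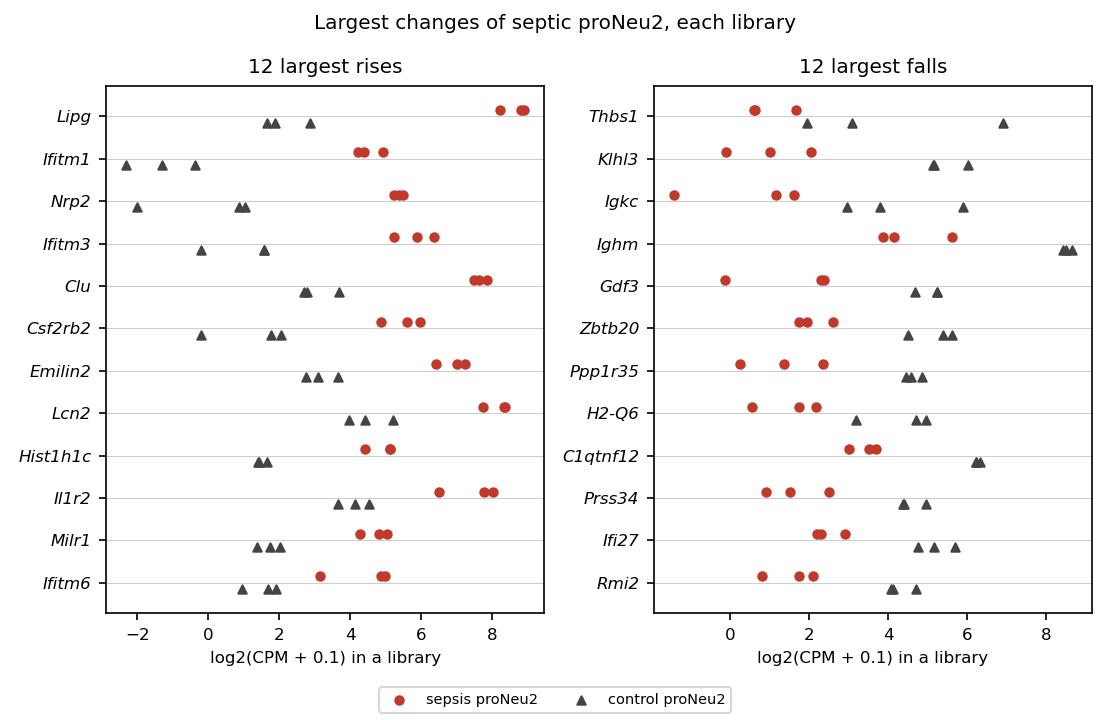
Level of the 12 genes with the largest rise (left) and the 12 with the largest fall (right) in each library, as log2 of CPM with 0.1 CPM added; red circles are the 3 sepsis libraries and dark triangles the 3 control libraries. The sepsis and control points of every gene are separate, which the choice of these genes required, and Thbs1 has 1 control library far to the right of the others.

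The azurophil granule genes did not move as a block. Mpo (chromosome 11, 87793581 to 87804413), the myeloperoxidase gene and the most abundant of them, was at 29180, 27860 and 27640 CPM in sepsis libraries and at 59440, 66760 and 69720 CPM in control libraries. Elane (chromosome 10, 79886247 to 79888215), the neutrophil elastase gene, was at 8866, 8099 and 7820 CPM in sepsis libraries and at 27490, 27010 and 20220 CPM in control libraries. The log2 changes were -1.21 ± 0.15 for Mpo (adjusted p = 2.32e-06) and -1.59 ± 0.23 for Elane (adjusted p = 9.96e-06). The related serine proteases were not called: Prtn3 (proteinase 3) stood at 2490 CPM in sepsis and 2562 CPM in control libraries on average (adjusted p = 0.974), and Ctsg (cathepsin G) at 3274 and 2140 CPM in that order (adjusted p = 0.255).

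Of 13 tested azurophil genes, 2 rose, 4 fell and 7 were not called, with a median log2 change of -0.13 against 0 over all genes. Over all tested genes 9.45% were called higher and 7.57% lower, and the counts of each list below stand beside these shares. Ctsc, the protease that activates the granule serine proteases, rose to 88.4, 111.9 and 99.5 CPM in sepsis libraries, against 44.5, 50.9 and 65.7 CPM in control libraries (0.90 ± 0.23). Gusb, a lysosomal glucuronidase, rose by a log2 value of 0.48 ± 0.09. The lysozyme gene Lyz2 was at -0.94 ± 0.23, but its adjusted p was 0.0509 without control replicate 1. The summed level of the list was 47230 to 49510 CPM in sepsis libraries and 98750 to 104300 CPM in control libraries, most of it from Mpo and Elane.

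Specific and gelatinase granule genes split as well. Lcn2 (chromosome 2, 32384633 to 32388252), whose product lipocalin-2 withholds iron from bacteria, stood at 214, 320.5 and 327.7 CPM in sepsis libraries and at 36.9, 21.2 and 15.6 CPM in control libraries (3.55 ± 0.33, adjusted p = 1.39e-08). Chil3, a chitinase-like protein gene with close paralogs, was at 2180, 5008 and 3418 CPM in sepsis and at 1134, 783.6 and 565.9 CPM in control libraries (2.09 ± 0.39). Ltf, the lactoferrin gene, went the other way, with 128.8, 127.1 and 124.7 CPM in sepsis and 653.4, 280.8 and 334.5 CPM in control libraries (-1.74 ± 0.43, adjusted p = 0.00453, and 0.0521 without control replicate 1). Camp, the cathelicidin gene, fell to 66.9, 99.1 and 132 CPM in sepsis libraries, against 454, 265.6 and 248.2 CPM in control libraries (-1.70 ± 0.38). Lactoferrin, cathelicidin and lipocalin-2 are stored in the same granules. Of 19 genes in the list, 4 rose, 3 fell and 12 were not called, with a median of 0.13, while 9.45% of all genes were called higher and 7.57% lower. The third fall was that of Pglyrp1, a peptidoglycan-binding protein (-0.87 ± 0.18), and the other rises were those of Hp, haptoglobin (0.54 ± 0.11), and Cd177 (1.38 ± 0.39), which lost its call without sepsis replicate 2 or 3 or control replicate 2 (adjusted p = 0.0599, 0.0696 and 0.0677).

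Among the transcription factors of the lineage, Cebpe (chromosome 14, 54710360 to 54712174), which encodes C/EBP epsilon, the factor needed for specific granules, fell. It was at 145.1, 64.3 and 52.4 CPM in sepsis libraries and at 492.7, 531.1 and 452.7 CPM in control libraries (-2.50 ± 0.44, adjusted p = 1.82e-04). Sepsis replicate 1 lay above the other sepsis libraries and still far below every control library. Id2, an inhibitor of basic helix-loop-helix factors, rose to 87.8, 140.9 and 138.6 CPM in sepsis libraries, against 64.4, 44.1 and 46.8 CPM in control libraries (1.24 ± 0.26). Gfi1, a repressor needed for neutrophil commitment, was at 82.3, 76.6 and 51.6 CPM in sepsis and at 66.6, 88.2 and 55.3 CPM in control libraries, which overlap (0.00 ± 0.27, adjusted p = 1). Cebpb, the factor of emergency granulopoiesis, was at 7.16, 0.237 and 0 CPM in sepsis and at 0.048, 0.408 and 0.404 CPM in control libraries, so that only sepsis replicate 1 stood above the rest (adjusted p = 0.247).

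Of 27 lineage factors, 3 rose, 9 fell and 15 were not called (median -0.36). The count of falls was 4 without sepsis replicate 2, 5 without sepsis replicate 3 and 6 without control replicate 1 or 2, and the count of rises was 1 without control replicate 2. Cebpa, the C/EBP factor of steady-state granulopoiesis, was at 22.5, 15.6 and 13.1 CPM in sepsis and at 29.5, 39.5 and 31.2 CPM in control libraries (-0.97 ± 0.29); its adjusted p was 0.019 in all libraries, 0.0794 without sepsis replicate 2, 0.107 without sepsis replicate 3 and 0.1 without control replicate 2. Gfi1b, the erythroid and megakaryocytic relative of Gfi1, was at 0, 0.237 and 0 CPM in sepsis and at 10.7, 4.797 and 4.745 CPM in control libraries. Klf5, a zinc finger factor, was at -1.22 ± 0.32 (adjusted p = 0.00792, and 0.0795 without control replicate 3), and Myc stood at 226.6 CPM in sepsis and 347.8 CPM in control libraries on average without a call (adjusted p = 0.155).

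Genes of stem and early progenitor cells were lower more often than higher. Of 20 tested, 8 fell, 1 rose and 11 were not called, with a median log2 change of -0.75; without sepsis replicate 3 the falls numbered 3, and without sepsis replicate 2 or control replicate 2 they numbered 4. Kit, the receptor of stem cell factor, fell to 139.7, 131.7 and 131.2 CPM in sepsis libraries, against 387.5, 352.7 and 436.8 CPM in control libraries (-1.55 ± 0.19, adjusted p = 1.53e-06). Myb, a factor of progenitor growth, fell to 157.4, 140.5 and 168.2 CPM in sepsis libraries, against 307.6, 402.3 and 298.8 CPM in control libraries (-1.11 ± 0.23). Angpt1, a growth factor made by progenitors, had no counts in the 3 sepsis libraries and 1.34, 4.39 and 2.83 CPM in control libraries. Cd34 averaged 6.51 CPM in sepsis and 11.3 CPM in control libraries and was not called (adjusted p = 0.403).

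Surface molecules of the myeloid stages gave 4 rises and 5 falls of 18, against 9.45% of all genes called higher and 7.57% called lower. Vcam1, an adhesion molecule, was at 120.1, 157 and 147.2 CPM in sepsis libraries and at 637.7, 704.1 and 570.6 CPM in control libraries (-2.17 ± 0.39, adjusted p = 1.77e-04). The tetraspanin genes Cd63 (-1.51 ± 0.29) and Cd81 (-1.10 ± 0.15) fell with it. Cd24a, a glycoprotein of maturing myeloid cells, rose to 408.6, 479.1 and 392.9 CPM in sepsis libraries, against 176.4, 159.9 and 163.3 CPM in control libraries (1.36 ± 0.18), and Siglece, an inhibitory sialic acid receptor, changed by 1.94 ± 0.25. Itgam, the CD11b gene, averaged 33.4 CPM in sepsis and 57.3 CPM in control libraries without a call (adjusted p = 0.0721). The rises of the list numbered 2 without sepsis replicate 2 or control replicate 2, and the falls numbered 7 without control replicate 3.

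Late neutrophil genes went in both directions, and 16 of 24 had a positive log2 change, called or not. Of 24, 6 rose, 4 fell and 14 were not called (median 0.64), and without control replicate 2 the rises numbered 2, without sepsis replicate 2 they numbered 3. Besides Il1r2, Clec4e, a receptor for mycobacterial glycolipids, rose to 52.2, 60.4 and 69.1 CPM in sepsis libraries, against 27.7, 35.0 and 21.8 CPM in control libraries (1.10 ± 0.20). Hdc, the histamine-forming decarboxylase gene that basophils also express, fell to 156.3, 151.8 and 128.2 CPM in sepsis libraries, against 753.3, 750.9 and 780.5 CPM in control libraries (-2.39 ± 0.37). The calprotectin genes S100a8 and S100a9 were higher in every sepsis library than in any control library and were not called (0.77 ± 0.29 and 0.94 ± 0.37, adjusted p = 0.0664 and 0.0784). Csf3r, the G-CSF receptor gene, was called lower in all libraries by a log2 value of -0.41 ± 0.14 (adjusted p = 0.0394), and with any 1 of the 6 libraries left out its adjusted p was 0.0644 to 0.125.

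The phagocyte oxidase, which makes superoxide, had 2 rises and 1 fall among 6 subunits. Ncf1, its p47 subunit, rose to 745.5, 893.7 and 849.2 CPM in sepsis libraries, against 344.4, 270.7 and 286.2 CPM in control libraries (1.47 ± 0.18, adjusted p = 1.05e-06). Rac2, the GTPase of the complex, was at 0.36 ± 0.11 (adjusted p = 0.02), with adjusted p = 0.0615, 0.0816 and 0.112 without sepsis replicate 2, sepsis replicate 3 and control replicate 2. Cyba, the p22 membrane subunit, was at -0.79 ± 0.16. Monocyte genes, with 2 rises and 2 falls of 20 (median -0.04), were called about as often as all genes (9.45% higher and 7.57% lower). Their called members with the most counts were F13a1, a coagulation factor chain, at 686.1, 909.4 and 779.7 CPM in sepsis and 321.8, 348 and 240.9 CPM in control libraries (1.38 ± 0.35), and Ly6c2 (-0.63 ± 0.19), whose adjusted p was 0.0603 and 0.0761 without sepsis replicates 2 and 3 and 0.168 without control replicate 1. Neither monocyte fall was called without sepsis replicate 2, sepsis replicate 3 or control replicate 1.

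Genes of G-CSF and IL-6 signalling through STAT3 were among the groups with most rises. The list holds receptor genes of the pathway, such as Csf3r and Il6st, as well as targets such as Socs3. Of 20, 9 rose, 1 fell and 10 were not called, with a median log2 change of 1.17, and 8 to 10 rose with any 1 library left out. The interferon-inducible genes Ifitm1 and Ifitm3, described above, were among the rises. The fall was that of Csf3r, the G-CSF receptor, which was not called with any 1 library left out. Socs3, the feedback inhibitor of these receptors, was at 20.4, 10.8 and 20.2 CPM in sepsis libraries and at 0, 0 and 2.02 CPM in control libraries (4.67 ± 1.14, adjusted p = 0.00435). Il4ra, the interleukin-4 receptor alpha chain, rose to 193.7, 243.5 and 225.2 CPM in sepsis libraries, against 62.5, 55.1 and 62.5 CPM in control libraries (1.88 ± 0.18). Pim1, a kinase that promotes survival, was at 1.65 ± 0.32, and Jak3, the kinase of the common gamma chain, at 1.17 ± 0.25. Il6st, the signal chain shared by IL-6 family receptors, was low, with 8.35, 4.15 and 2.83 CPM in sepsis and 0.096, 0.102 and 0.202 CPM in control libraries; the groups did not overlap, and since the control values rest on a few counts per library no fold change is given. Stat3 itself stood at 528.1 CPM in sepsis and 555.7 CPM in control libraries on average and was not called.

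Cytokine and chemokine receptors gave 7 rises and 4 falls of 31 (median 0.55). Csf2rb was at 689, 720.7 and 786.3 CPM in sepsis libraries and at 145.9, 150.1 and 183 CPM in control libraries (2.20 ± 0.14, adjusted p = 7.14e-11), with no overlap. Tnfrsf1a, the main receptor of tumour necrosis factor, was at 0.82 ± 0.18. The 4 falls were those of Kit, Csf3r, Csf2ra and Ifngr1. The falls numbered 1 without sepsis replicate 1, sepsis replicate 3 or control replicate 2, and 2 without control replicate 1 or 3. Of 20 NF-kB response genes 8 rose and 0 fell (median 0.25), and 7 or 8 rose with any 1 library left out, with 1 fall only without sepsis replicate 3. Icam1, an adhesion molecule, was at 22.7, 26.7 and 30.5 CPM in sepsis and at 7.68, 2.96 and 11.2 CPM in control libraries (1.87 ± 0.41), and the subunit gene Nfkb2 changed by 1.06 ± 0.25. Tnf was at 5.57, 6.93 and 8.34 CPM in sepsis and at 0.384, 1.43 and 1.51 CPM in control libraries (2.64 ± 0.58). Of 25 genes of Toll-like receptors and sensing, 2 rose and 0 fell (median 0), and the rises were near the 9.45% of all genes called higher. Tlr2, the receptor of bacterial lipopeptides, was at 34.7, 46.9 and 41.6 CPM in sepsis and at 7.29, 6.33 and 3.13 CPM in control libraries (2.88 ± 0.25, adjusted p = 6.54e-09). Myd88, the adaptor below most of these receptors, was at 1.26 ± 0.13. Immediate early genes gave 1 rise of 14, also near the share of all genes called higher. The rise was that of Junb (1.03 ± 0.28, adjusted p = 0.0507 without control replicate 2).

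The 250 bases before the start of 5 of these genes are shown because their windows hold the letters of factors whose gene groups are described here. Socs3 is a known target of STAT3, Lcn2 and Ltf are known targets of C/EBP proteins, and Oas3, a sensor of viral RNA, is induced by interferon; Il1r2 is shown as one of the largest rises and is not in the STAT3 response list. Sequences are from RefSeq on GRCm38.p6, read 5′ to 3′ on the strand of the gene, and capitals mark a match on either strand to TTCNNNGAA for STAT, TTGCNNAA for C/EBP or TTTC, any 2 bases and TTTC for the interferon-stimulated response element (ISRE). The windows are chr11:117969367-117969616 (minus strand) for Socs3, chr1:40085843-40086092 (plus) for Il1r2, chr2:32387740-32387989 (minus) for Lcn2, chr9:111019042-111019291 (plus) for Ltf and chr5:120777660-120777909 (minus) for Oas3. They precede the RefSeq start, and for Socs3, Il1r2 and Lcn2 the whole window, and for Ltf and Oas3 its last bases, lie inside the gene as counted, whose annotated start is further upstream.
Socs3: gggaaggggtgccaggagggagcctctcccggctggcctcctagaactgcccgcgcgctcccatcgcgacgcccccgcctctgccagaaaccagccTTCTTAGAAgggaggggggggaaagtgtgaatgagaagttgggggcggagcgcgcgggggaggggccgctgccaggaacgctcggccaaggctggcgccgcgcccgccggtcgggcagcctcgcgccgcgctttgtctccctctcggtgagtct
Il1r2: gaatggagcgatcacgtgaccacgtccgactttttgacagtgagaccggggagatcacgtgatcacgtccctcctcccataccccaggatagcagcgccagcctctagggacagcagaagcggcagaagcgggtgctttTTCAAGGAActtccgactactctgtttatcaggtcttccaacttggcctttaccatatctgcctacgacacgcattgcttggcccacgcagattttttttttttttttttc
Lcn2: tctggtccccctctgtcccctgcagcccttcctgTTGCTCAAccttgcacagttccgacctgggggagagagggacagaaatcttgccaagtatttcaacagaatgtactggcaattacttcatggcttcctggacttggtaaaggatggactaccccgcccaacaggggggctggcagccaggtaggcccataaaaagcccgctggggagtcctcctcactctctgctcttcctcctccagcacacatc
Ltf: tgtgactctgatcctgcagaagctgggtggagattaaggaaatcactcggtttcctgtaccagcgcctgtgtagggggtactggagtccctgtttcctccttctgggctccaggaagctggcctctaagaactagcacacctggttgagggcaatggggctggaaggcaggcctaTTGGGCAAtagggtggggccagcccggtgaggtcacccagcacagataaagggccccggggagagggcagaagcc
Oas3: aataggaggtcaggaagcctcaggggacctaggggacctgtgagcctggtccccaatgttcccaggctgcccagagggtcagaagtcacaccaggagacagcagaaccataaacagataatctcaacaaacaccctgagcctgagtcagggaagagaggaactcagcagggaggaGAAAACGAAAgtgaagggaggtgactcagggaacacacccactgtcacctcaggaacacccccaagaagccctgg

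The match of Socs3 began 154 bases and that of Il1r2 111 bases before the start, both genes that were higher in sepsis. Lcn2, which was higher, and Ltf, which was lower, both held a C/EBP match, beginning 216 and 75 bases before the start. The capitals in Oas3, beginning 75 bases before the start, are an ISRE read on the other strand, and Oas3 was at 0.0912, 0 and 2.1 CPM in sepsis and at 7.01, 2.35 and 11.1 CPM in control libraries (-3.15 ± 0.93, adjusted p = 0.0182). Its adjusted p was 0.0938 without sepsis replicate 1 or 2 and 0.0882 without control replicate 3. Across all 32851 RefSeq windows of this length, 7.02% held the STAT letters, 9.56% the C/EBP letters and 2.98% the ISRE letters, each motif being searched on its own, so that matches of different motifs may overlap. Windows of genes called higher and called lower held the STAT letters in 6.31% and 5.93%, the C/EBP letters in 7.8% and 7.78% and the ISRE letters in 2.96% and 2.44%. In the STAT3 response list 1 of 18 genes with a window held the STAT letters (Socs3), in the specific granule list 5 of 15 held the C/EBP letters, and in the interferon list 13 of 23 held the ISRE letters, of which 0 were called higher and 4 lower. A match of letters is a description and not a measured binding site.

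The listed interferon response genes were lower or not called, with 1 exception. Of 30, 9 fell, 1 rose and 20 were not called, with a median log2 change of -0.83, and 6 to 9 fell with any 1 library left out. The exception was Ifitm3, described above. Its interferon-inducible neighbours Ifitm1 and Ifitm6, which also rose, were not counted in this list. Irf9, the DNA-binding subunit of the type I interferon complex, fell to 11.7, 10.2 and 14.2 CPM in sepsis libraries, against 35.3, 34.3 and 30.5 CPM in control libraries (-1.47 ± 0.25, adjusted p = 1.14e-04). Gbp7, a guanylate-binding protein, fell to 37.0, 35.4 and 37.6 CPM in sepsis libraries, against 73.0, 86.6 and 84.0 CPM in control libraries (-1.15 ± 0.25). Parp14, an ADP-ribosyltransferase, was at -1.64 ± 0.36, and Igtp, an interferon-gamma induced GTPase, at -0.99 ± 0.21. Several members were near the limit of detection in both groups: Mx1 had no counts, and Isg15 reached 0.0912 CPM in sepsis and 0.707 CPM in control libraries at most. Class I presentation genes gave 1 rise and 4 falls of 13, against 9.45% of all genes called higher and 7.57% called lower. Tapbp, the tapasin gene, fell to 204.2, 190.6 and 159.4 CPM in sepsis libraries, against 435.1, 443.6 and 308.1 CPM in control libraries (-1.10 ± 0.15), and the immunoproteasome subunit gene Psmb10 changed by the same log2 value (SE 0.14). The falls of the class I list numbered 2 without control replicate 1, and its rises numbered 0 without sepsis replicate 2 or 3 or control replicate 2 or 3, and 2 without control replicate 1.

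Genes of glucose use rose in most members. Of 19 glycolysis genes, 12 rose, 1 fell and 6 were not called, with a median of 0.87, and 11 or 12 rose with any 1 library left out. Ldha, lactate dehydrogenase A, was at 2500, 2785 and 3020 CPM in sepsis libraries and at 942.7, 662.5 and 1082 CPM in control libraries (1.63 ± 0.13, adjusted p = 9.46e-10). Gpi1, the second enzyme of the pathway, was at 3148, 3182 and 3099 CPM in sepsis libraries and at 1298, 1188 and 1284 CPM in control libraries (1.32 ± 0.13). Gapdh was at 3163, 3615 and 3430 CPM in sepsis and at 654, 558.5 and 616.8 CPM in control libraries (2.48 ± 0.21); it has many processed pseudogenes, so its count is uncertain. The glucose transporter genes Slc2a1 (2.03 ± 0.32) and Slc2a3 (2.08 ± 0.39) rose, and the fall was that of the hexokinase gene Hk3 (-0.48 ± 0.11), the most abundant of its family here. The summed level of the list was 19520 to 20830 CPM in sepsis and 10080 to 11570 CPM in control libraries.

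Biosynthesis genes rose more often than they fell, while 9.45% of all genes were called higher and 7.57% lower. Of 19 genes of serine, one-carbon and amino acid synthesis, 10 rose and 0 fell (median 0.92), and 8 to 10 rose with any 1 library left out. Psat1, the second enzyme of serine synthesis, was at 218.4, 239.5 and 282.8 CPM in sepsis and at 71.8, 73.3 and 99.2 CPM in control libraries (1.6 ± 0.20), and Mthfd2, a mitochondrial folate enzyme, at 96.2, 104.5 and 108.5 CPM in sepsis and at 31.6, 19.9 and 43.9 CPM in control libraries (1.70 ± 0.20). Atf4, the factor that induces these genes under amino acid stress, was at 1.33 ± 0.18. Of 26 sterol and fatty acid genes, 9 rose and 0 fell (median 0.50), and 6 to 9 rose with any 1 library left out. Srebf1, a master factor of lipid synthesis, was at 159.4, 153 and 145 CPM in sepsis and at 48.0, 50.7 and 64.2 CPM in control libraries (1.49 ± 0.13, adjusted p = 1.15e-08). Oxidative phosphorylation gave 9 rises and 3 falls of 28 (median 0.17). Atp5b, the catalytic subunit of ATP synthase, was at 2168, 2467 and 2475 CPM in sepsis and at 726.9, 597.9 and 741.1 CPM in control libraries (1.78 ± 0.18). Uqcrc1, a core subunit of complex III, went down by a log2 value of -0.48 ± 0.10. ER chaperones and unfolded protein response genes gave 5 rises and 2 falls of 22, and 1 fall without sepsis replicate 2, with P4hb, a protein disulfide isomerase, at 1.28 ± 0.14 and Herpud1, a factor of ER-associated degradation, at -0.85 ± 0.19. Of 15 iron genes 3 rose and 0 fell. Among these rises, Steap4 was at 0, 2.61 and 0.638 CPM in sepsis libraries and had no counts in control libraries. Steap4 was not called without sepsis replicate 2 or any 1 control replicate (adjusted p = 0.0921 to 0.156).

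Many DNA replication genes rose, while most mitosis genes were not called. Of 27 replication genes, 13 rose, 1 fell and 13 were not called (median 0.45), and 11 to 13 rose and 0 fell with any 1 library left out. Cdc45, a helicase component that fires origins, was at 331.3, 347.1 and 327.7 CPM in sepsis libraries and at 150.4, 83.8 and 152.5 CPM in control libraries (1.38 ± 0.23, adjusted p = 9.31e-05). Rrm2, the regulated subunit of ribonucleotide reductase, rose to 1360, 1444 and 1650 CPM in sepsis libraries, against 799.4, 839 and 895.4 CPM in control libraries (0.81 ± 0.15). Mcm3 and Mcm7 of the replicative helicase rose by log2 values of 0.70 ± 0.13 and 0.74 ± 0.14, while Mcm2 stood at 709 CPM in sepsis and 703.3 CPM in control libraries (adjusted p = 0.995). Of 24 genes of G2 and M phase, 2 rose, 2 fell and 20 were not called (median -0.05), and 1 rose without sepsis replicate 2 or 3 or control replicate 2 or 3. With all libraries, these shares were near the 9.45% and 7.57% of all genes called higher and lower. Ccna2, cyclin A2 of S and G2 phase, rose to 297.7, 378.8 and 379.9 CPM in sepsis libraries, against 163.6, 128.2 and 173.7 CPM in control libraries (1.18 ± 0.14), and the kinetochore gene Cenpf fell to 53.0, 50.4 and 55.8 CPM in sepsis libraries, against 103.7, 125.6 and 98.5 CPM in control libraries (-1.04 ± 0.25). The proliferation marker Mki67 averaged 444.3 CPM in sepsis and 585.8 CPM in control libraries without a call (adjusted p = 0.107).

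Cell cycle regulators of G1 gave 5 rises and 2 falls of 18. Ccne1, cyclin E1, which drives entry into S phase, was at 124.6, 127.9 and 106.6 CPM in sepsis libraries and at 33.2, 28.4 and 31.1 CPM in control libraries (1.95 ± 0.37). E2f2 (1.83 ± 0.23) and E2f8 (1.00 ± 0.20), factors of S phase genes, rose too, as did Ccnd3, cyclin D3 (0.93 ± 0.10). The inhibitor gene Cdkn2c fell to 1.92, 2.73 and 2.19 CPM in sepsis libraries, against 10.3, 16.02 and 10.1 CPM in control libraries (-2.41 ± 0.49), and Cdk6 was at -0.48 ± 0.11. Ribosome biogenesis genes gave 9 rises and 2 falls of 26 (median 0.41), and 6 to 10 rose with any 1 library left out, while 0 fell without sepsis replicate 2 or 3 or control replicate 2 or 3. Npm1, nucleophosmin, was at 1339, 1425 and 1644 CPM in sepsis and at 506.8, 454 and 572.6 CPM in control libraries (1.52 ± 0.24).

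Markers of other cell types were measured because a sorted gate can hold a few cells of other kinds. B lineage genes summed to 37.4 to 78.8 CPM in sepsis and to 417.2 to 541.3 CPM in control libraries; of 13 tested, 4 fell and 0 rose (median -2.29), and 1 to 3 were called lower with any 1 library left out, 1 without sepsis replicate 3 and 2 without sepsis replicate 2 or control replicate 2. Most of the control sum of this list came from Ighm, which averaged 371.6 CPM in control and 27.1 CPM in sepsis libraries. The B cell genes Ms4a1 and Cd79a averaged 0.1 and 0.299 CPM in sepsis and 0.512 and 0.699 CPM in control libraries. Cd79b of the same list averaged 25.5 CPM in sepsis and 45.8 CPM in control libraries (adjusted p = 0.0366). Its call was lost without sepsis replicate 1 or 3 or control replicate 1 or 2. Basophil and mast cell genes summed to 149.2 to 188.9 CPM in sepsis and to 801 to 832.7 CPM in control libraries, with 4 falls and 0 rises of 10. Hdc made up most of that sum, 2 members had no counts in any of the 6 libraries (Cma1 and Tpsb2), and 2 falls remained without sepsis replicate 3; the basophil protease Mcpt8 averaged 12.9 CPM in sepsis and 10.99 CPM in control libraries (adjusted p = 0.731). Erythroid genes summed to 48.2 to 72.3 CPM in sepsis and to 115.1 to 186 CPM in control libraries, with 4 falls of 14, among them the erythroid factor Klf1 (-3.005 ± 0.60), and 2 falls without sepsis replicate 1 or control replicate 1.

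Class II and dendritic genes gave 4 falls of 14, and their sum was 137.6 to 157.5 CPM in sepsis and 250 to 333.2 CPM in control libraries. Most of it came from Cst3, cystatin C, which fell to 93.6, 101.1 and 109.4 CPM in sepsis libraries, against 218.4, 231.1 and 153.3 CPM in control libraries (-0.99 ± 0.14), while Batf3, Irf4 and Itgax had no counts. The macrophage list gave 1 fall of 13, near the 7.57% of all genes called lower. That fall was of Vcam1, and the list summed to 460.2 to 505.2 CPM in sepsis and 1084 to 1215 CPM in control libraries. The megakaryocyte list gave 1 fall of 8, that of the tetraspanin gene Cd9 (-1.45 ± 0.21), near the 7.57% of all genes called lower. This list summed to 34.5 to 40.6 CPM in sepsis and 80.6 to 123.3 CPM in control libraries. Cd9 made up most of that sum, at 35.0 CPM in sepsis and 95.9 CPM in control libraries on average. The T and NK list gave 1 fall of 5, that of Nkg7, which fell to 494.5, 437 and 414.8 CPM in sepsis libraries, against 1485, 1552 and 1179 CPM in control libraries (-1.65 ± 0.19), while 6 T and NK genes, with Cd3e and Ncr1 among them, had no counts in the 6 libraries. The part of other cells in any of these changes was not tested.

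Eosinophil genes were the one set of another lineage that rose. Of 9 tested, 5 rose, 0 fell and 4 were not called (median 2.05), and 4 or 5 rose with any 1 library left out. Epx, eosinophil peroxidase, was at 62.8, 21.8 and 42.5 CPM in sepsis libraries and at 6.58, 4.29 and 7.67 CPM in control libraries (2.78 ± 0.41, adjusted p = 1.57e-05). Prg2, the major basic protein of eosinophil granules, was at 122.4, 55.6 and 68.2 CPM in sepsis libraries and at 26.0, 15.0 and 18.5 CPM in control libraries (2.05 ± 0.43). Sepsis replicate 1 was highest for both. With limma, an alternative method, the rise of Prg2 was not called (adjusted p = 0.119). Siglecf, the surface marker by which eosinophils are usually sorted, averaged 63.3 CPM in sepsis and 75.6 CPM in control libraries (adjusted p = 0.776), and the eotaxin receptor gene Ccr3 averaged 0.775 CPM in sepsis and 1.24 CPM in control libraries. Ear1, Ear2 and Ear6, ribonuclease genes with near-identical copies, were the other rises and are uncertain as single genes. Without control replicate 2 or 3, Ear1 was not called (adjusted p = 0.0734 and 0.0696).

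**Figure D3:**
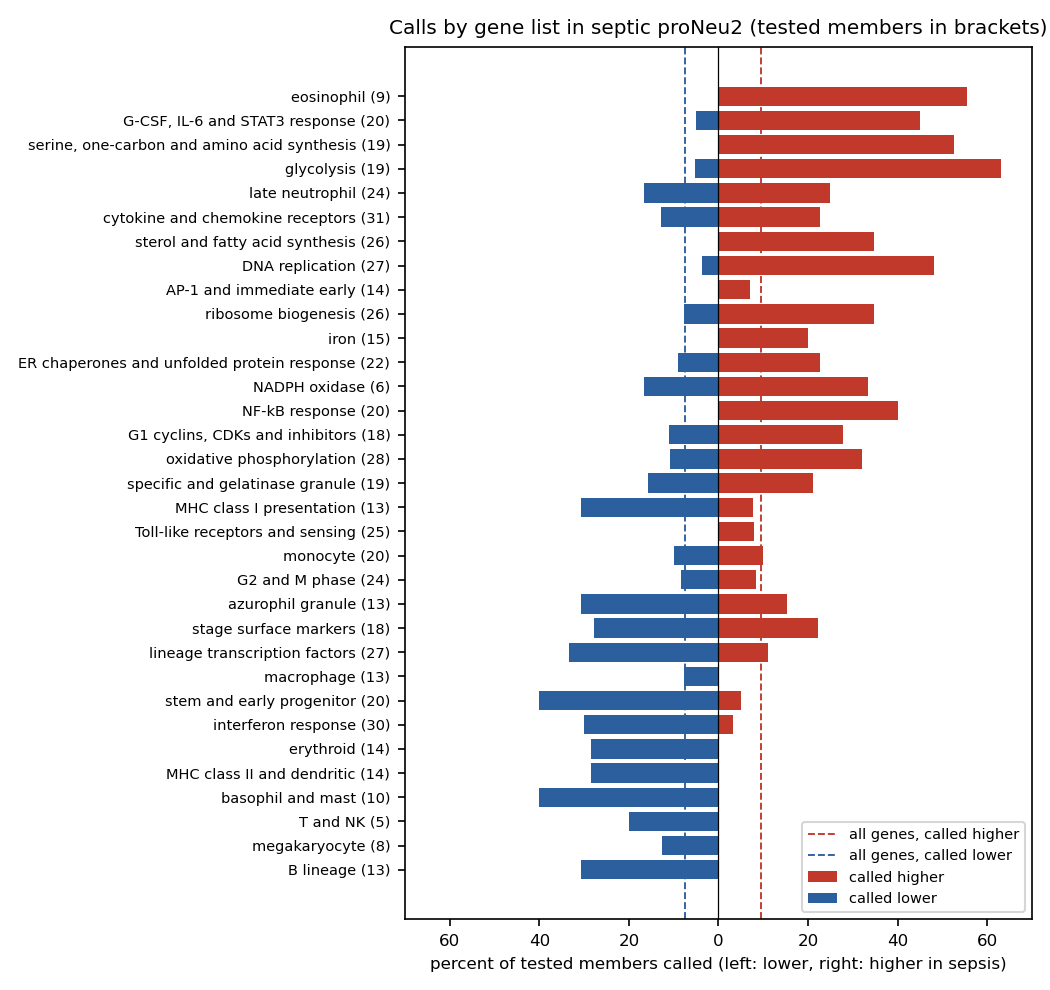
Percent of the tested members of each of 33 gene lists that were called higher (red bars, to the right) or lower (blue bars, to the left) in sepsis proNeu2, ordered from top to bottom by median log2 fold change; the number of tested members is in brackets and dashed lines mark the 9.45% and 7.57% of all genes called higher and lower. Glycolysis has the longest red bar with 12 of 19 members, and the B lineage list has the lowest median. Genes with no counts in a group enter these medians with folds that the counts do not bound. With those folds bounded at 3 counts over a group, the T and NK median was -0.01 in place of -1.65. That of the basophil and mast list was then -0.11 in place of -1.13.

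Most genes that rose in septic proNeu2 cells also rose at a neighbouring stage. Sepsis changed 1872 genes upward (10.3% of tested) and 1351 downward (7.42%) in Ly6C- GMP, 1511 (8.3%) and 1328 (7.3%) in proNeu1 and 1378 (7.57%) and 767 (4.21%) in preNeu cells, each against controls of its own stage. Of the genes called higher in proNeu2, 1156 were also called higher in Ly6C- GMP (67.2% of those of proNeu2 and 61.8% of those of Ly6C- GMP), 983 in proNeu1 (57.2% and 65.1%) and 609 in preNeu (35.4% and 44.2%). Of the genes called lower in proNeu2, 678 were also lower in Ly6C- GMP (49.2% and 50.2%), 743 in proNeu1 (53.9% and 55.9%) and 373 in preNeu (27.1% and 48.6%). In all 4 populations 367 genes were called higher and 201 lower, while 302 higher and 378 lower genes of proNeu2 were called at no other stage, which is not by itself a difference between stages.

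Levels along the path placed these changes beside maturation. Mpo averaged 28230 ± 833 CPM in sepsis and 65300 ± 5290 CPM in control proNeu2 cells, and in preNeu cells 13570 ± 1120 CPM in sepsis and 9449 ± 3900 CPM in control. Lcn2 averaged 287.4 ± 63.7 CPM in sepsis and 24.6 ± 11 CPM in control proNeu2 cells, while in preNeu cells, which make this protein in quantity, it averaged 3207 ± 405 CPM in sepsis and 2495 ± 1170 CPM in control. Ltf averaged 11480 ± 3380 CPM in sepsis and 39320 ± 9150 CPM in control preNeu cells, so that lactoferrin transcripts were far under the preNeu level in proNeu2 cells of both kinds. Cebpe averaged 87.3 ± 50.5 CPM in sepsis proNeu2 and 128.6 ± 22.6 CPM in sepsis proNeu1 cells, while in control cells it averaged 492.2 ± 39.2 CPM in proNeu2 and 238.2 ± 40.8 CPM in proNeu1 cells. The difference between those sepsis effects on Cebpe was not called (-1.61, adjusted p = 0.344).

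**Figure D4:**
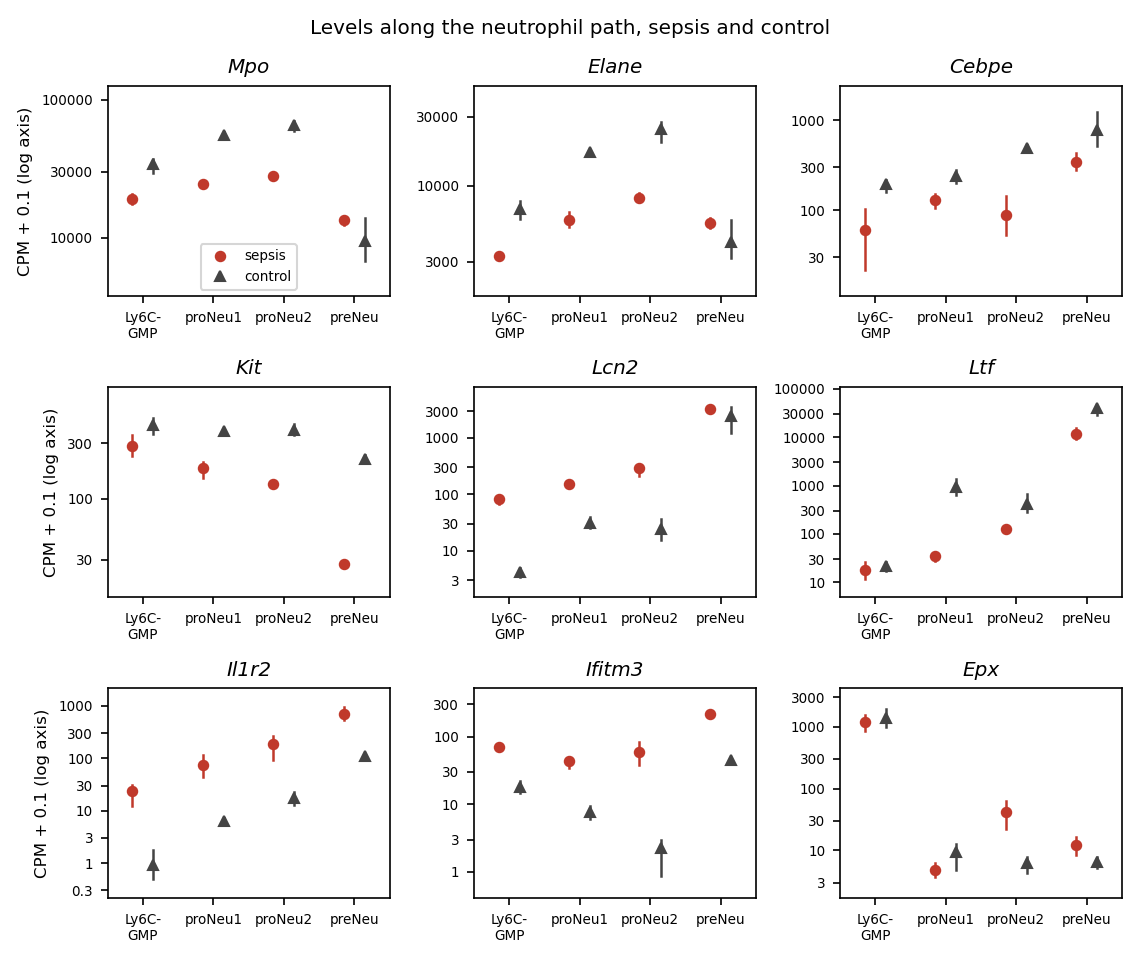
Mean CPM with 0.1 CPM added, on a log axis, for 9 genes in Ly6C- GMP, proNeu1, proNeu2 and preNeu cells; red circles are sepsis and dark triangles control groups, and lines span the lowest to the highest of 3 libraries. In proNeu2 the sepsis range lies below the control range for Mpo, Elane, Cebpe, Kit and Ltf and above it for Lcn2, Il1r2, Ifitm3 and Epx.

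Few genes were called as differing in sepsis effect between proNeu2 and the mean of the other 3 populations. The count depended on the method, from 7 against a fold change of 1.5 to 205 with DESeq2. A difference that was not called is not evidence of equal effects. The test of the difference, the proNeu2 effect minus the mean of the effects in Ly6C- GMP, proNeu1 and preNeu, called 44 genes, 0.242% of those tested, 32 with a higher and 12 with a lower effect in proNeu2. Ifitm3 had a proNeu2 effect higher by 2.49 on the log2 scale (SE 0.33, adjusted p = 2.80e-04), and this was called in every alternative run. Ifitm3 averaged 59.3 ± 22.3 CPM in sepsis and 2.17 ± 1.22 CPM in control proNeu2 cells. In Ly6C- GMP it averaged 70.7 ± 9.84 CPM in sepsis and 17.7 ± 3.67 CPM in control, in proNeu1 43.1 ± 7.68 CPM in sepsis and 7.53 ± 1.67 CPM in control, and in preNeu 211.7 ± 29.1 CPM in sepsis and 44.3 ± 3.35 CPM in control. Of the 4 control groups, proNeu2 was therefore the lowest. Milr1 (2.01, adjusted p = 2.80e-04, called in every alternative run) and Csf2rb2 (2.43, adjusted p = 0.017) also had a higher effect, though Csf2rb2 was not called without sepsis replicate 2 or control replicate 2 (adjusted p = 0.0738 and 0.0519). Nor was Csf2rb2 called with limma or without the shallow libraries. Sepsis also raised Csf2rb2 in proNeu1 (2.86) and preNeu (2.26) but not in Ly6C- GMP (-0.15). Its differences from proNeu1 and preNeu alone were not called (adjusted p = 0.495 and 0.0553).

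Epx differed most among genes at 20 CPM or more, with an effect higher in proNeu2 by 2.90 on the log2 scale (adjusted p = 0.00239), and Prg2 differed by 2.50 (adjusted p = 0.0292). Both stood far higher in Ly6C- GMP of both kinds, with Epx at 1200 ± 358 CPM in sepsis and 1397 ± 481 CPM in control Ly6C- GMP. In proNeu1 cells Epx averaged 4.68 ± 1.4 CPM in sepsis and 9.21 ± 3.96 CPM in control. With limma neither difference was called (adjusted p = 0.279 and 0.353), and that of Prg2 was not called without sepsis replicate 1, control replicate 2 or control replicate 3 (adjusted p = 0.0752, 0.14 and 0.0993). Against preNeu alone the difference of Epx was 1.91 and was not called (adjusted p = 0.0644). Over the 9 tested eosinophil genes, mean log2 CPM with 1 CPM added was also higher in sepsis (3.01 to 3.27) than in control preNeu libraries (2.11 to 2.19). Slc2a3, the glucose transporter of neutrophils, had an effect higher by 2.49 (adjusted p = 0.00995), and it averaged 57.4 ± 22.2 CPM in sepsis and 13.5 ± 5.14 CPM in control proNeu2 cells, and 16.2 ± 3.97 CPM in sepsis and 27.9 ± 14.9 CPM in control proNeu1 cells. It was not called without sepsis replicate 3 or control replicate 2 (adjusted p = 0.0567 and 0.0604).

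**Figure D5:**
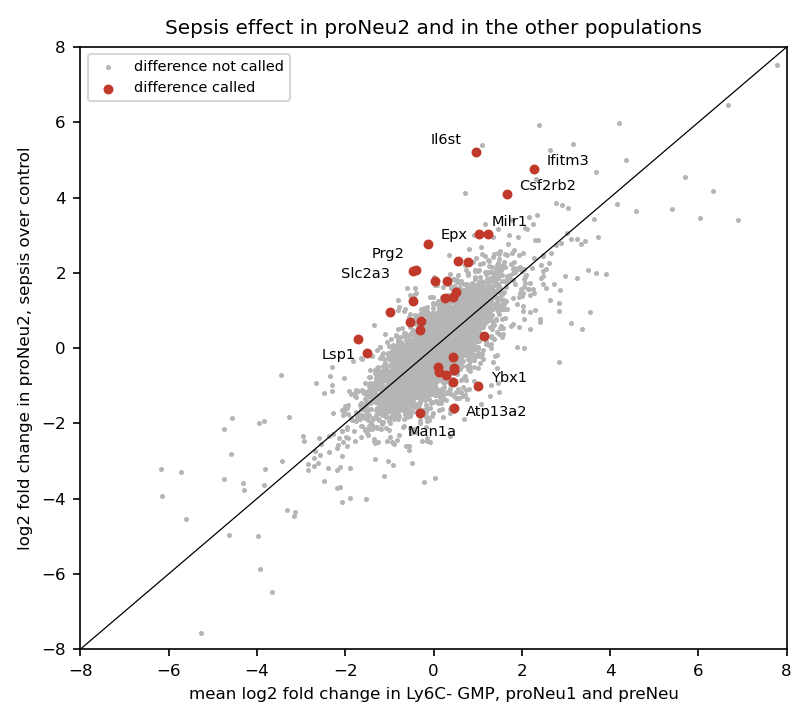
Log2 fold change of sepsis over control in proNeu2 (vertical) against the mean of the log2 fold changes in Ly6C- GMP, proNeu1 and preNeu (horizontal), for 9636 genes with at least 5 CPM in the higher proNeu2 group; the diagonal marks equal effects, red points are the 33 of these genes whose difference was called, and 2 genes lie outside the axes. Most points lie along the diagonal, and Ifitm3, Csf2rb2, Epx, Prg2 and Slc2a3 lie above it.

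Against single neighbours, 77 genes (0.423%) differed in effect from proNeu1, 26 with a higher and 51 with a lower effect in proNeu2, and 648 (3.56%) differed from preNeu, 299 higher and 349 lower. The count against proNeu1 was 18 without the 5 shallow libraries, which include 1 sepsis and 1 control proNeu1 library, and then 13 were higher and 5 lower. The counts against preNeu then were 199 higher and 531 lower. Lcn2 had an effect higher by 3.19 in proNeu2 than in preNeu and was called in every alternative run, while its preNeu levels overlapped between sepsis and control. Cd68, a lysosomal membrane glycoprotein of phagocytes, had an effect lower by 2.91 on the log2 scale in proNeu2 (adjusted p at most 5.80e-04 in all alternatives), with 15.2 ± 2.73 CPM in sepsis and 21.7 ± 3.5 CPM in control proNeu2 cells, and 48.1 ± 10.5 CPM in sepsis and 9.55 ± 3.43 CPM in control preNeu cells.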

How the data were processed

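RNA of sorted cells was measured in 33 libraries, 11 groups of 3 biological replicates per the labels. The deposited table holds raw counts of reads per gene for 54752 features; reads were aligned with STAR to GRCm38 and counted by the authors with featureCounts, per the submitters' processing notes, which give no versions. How strand, read mates and multiply mapping reads were counted is not given in the sources used here, and 76.2% of the counts from 1 to 10 are even numbers, so precision is lower than the totals alone would give and counting limits cover counting error only.

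The counts were analysed with edgeR 4.0.16 in R 4.3.3, by the robust quasi-likelihood test with TMM scaling, after its default filter on low counts, which kept 18198 genes. All 33 libraries were fitted together with 1 mean per group (22 residual degrees of freedom, biological coefficient of variation 0.472). P-values were adjusted over all tested genes by the Benjamini-Hochberg method, and genes with an adjusted p under 0.05 were called. The standard error of a log2 fold change is its size divided by the square root of the F statistic. DESeq2 1.42.0 and limma 3.58.1 served as alternatives, among 16 settings that also took in other size factors, other filters, a test against a fold change of 1.5, halved counts, smaller sets of libraries and leaving out each proNeu2 library.

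The comparison and the 33 gene lists were chosen with earlier results of these data known. Genes named are the 12 largest rises and falls among called genes at 20 CPM or more whose libraries do not overlap, the 3 largest called rises and falls of each list, the 5 largest called differences in each direction, the most abundant members of other cell type lists, and a panel of 19 neutrophil genes, 169 in all. Another 33 genes were named after their values were seen. The labels call the replicates biological and do not say whether mice were pooled.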

Additional observations from a re-analysis of the deposited data

Results flagged for a closer look

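Each value here is the log2 sepsis effect in proNeu2 minus that elsewhere, so that a positive value means a higher effect in proNeu2, and each was called by the test of the difference itself. Against the mean effect in Ly6C- GMP, proNeu1 and preNeu cells, 44 genes differed. The largest positive differences among genes at 20 CPM or more were those of Epx (2.90), Prg2 (2.50), Ifitm3 (2.49), Slc2a3 (2.49) and Csf2rb2 (2.43). The largest negative ones were those of Atp13a2, a lysosomal transport ATPase (-2.04), Ybx1, an RNA-binding protein (-2.01), Man1a, a mannosidase of glycan trimming (-1.41), Psme3, a proteasome activator (-1.36), and the secreted peroxidase gene Gpx3 (-1.04). Ybx1 averaged 159.1 CPM in sepsis and 318.5 CPM in control proNeu2 cells, and 465.7 CPM in sepsis and 118.6 CPM in control proNeu1 cells. The negative differences against the 3 populations turned on single libraries. With 1 proNeu2 library left out, those of Ybx1 and Psme3 were not called without sepsis replicate 1, 2 or 3 or control replicate 2 or 3, and that of Gpx3 without sepsis replicate 1, 2 or 3 or control replicate 1 or 2. That of Man1a was not called without sepsis replicate 2 or 3 or control replicate 2 or 3, and that of Atp13a2 without sepsis replicate 2 or 3 or control replicate 1 or 3.

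Against proNeu1, 77 genes differed, led by Epx (3.80), Prg2 (3.67), Ifitm6 (3.30), Ltf (3.02) and Slc2a3 (2.82), and on the other side by Riox1 (-4.12), Wrnip1 (-4.05), Rab24 (-3.48), Ubqln1 (-3.24) and Sap30 (-3.08). Of these 10, only the differences of Epx and Prg2 were called without the 5 shallow libraries. With 1 proNeu2 library left out, Rab24 and Sap30 were not called without sepsis replicate 2 or 3 or control replicate 2 or 3, Ltf without control replicate 2 or 3, Wrnip1 without sepsis replicate 2 and Slc2a3 without sepsis replicate 3. Ltf was lower in sepsis at both stages, with 126.8 CPM in sepsis and 422.9 CPM in control proNeu2 cells, and 34.3 CPM in sepsis and 936.5 CPM in control proNeu1 cells.

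Against preNeu, 648 genes differed, led by Lcn2 (3.19), Olfml2b (2.80), Tango6 (2.61), Ifitm3 (2.51) and Chil3 (2.28), and on the other side by Ms4a6b (-4.08), Atp13a2 (-3.36), Cd68 (-2.91), Apoe (-2.73) and Ctsc (-2.68). Ctsc averaged 99.9 CPM in sepsis and 53.7 CPM in control proNeu2 cells, and 315.7 CPM in sepsis and 27.4 CPM in control preNeu cells. Olfml2b was not called with sepsis replicate 2 or 3 or any control replicate left out, and Chil3 was not called without sepsis replicate 2 (adjusted p = 0.0608).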

How the results depend on the processing

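No paired analysis was possible because the labels carry no replicate numbers. Of 148 named genes called in proNeu2, 76 were called under all 16 alternatives, 47 lost their call with 1 proNeu2 library left out and 0 reversed; of 30 named differences, 8 were called under every alternative run. The cause of the changes in counts below was not tested, apart from fewer samples or a stricter null. For sepsis against control, the test against a fold change of 1.5 called 802 genes (477 higher, 325 lower), and with 1 library left out 2060 to 2694 were called (1139 to 1526 higher, 921 to 1168 lower). For the difference from the other 3 populations, counts were 205 with DESeq2 (106 higher, 99 lower), 99 with limma (26 and 73), 7 against a fold of 1.5 (7 and 0), 22 in the 24 libraries of the neutrophil path (17 and 5), 50 higher with a stricter filter and 20 higher without the shallow libraries. With 1 library left out they were 16 to 63 (11 to 49 higher, 0 to 14 lower). For the difference from proNeu1, counts were 247 with DESeq2 (88 and 159), 124 with limma (98 lower), 27 against a fold of 1.5 (14 and 13), 18 without the shallow libraries (13 and 5) and 28 to 124 with 1 library left out (15 to 52 higher, 13 to 99 lower). For the difference from preNeu, they were 1173 with DESeq2 (530 and 643), 1262 with limma (680 and 582), 71 against a fold of 1.5 (14 and 57), 199 higher and 531 lower without the shallow libraries, and 374 to 607 with 1 library left out (163 to 305 higher, 211 to 302 lower). Genes near 3 counts in a library have no resolvable fold at this depth.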

Other observations

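Xist, the RNA of the inactive X chromosome, was singled out after its values were seen. It stood at 161.5, 199.7 and 183.7 CPM in sepsis libraries and at 379, 369.2 and 421.7 CPM in control libraries (log2 fold change -1.10 ± 0.23, adjusted p = 8.47e-04), and it was called in every alternative except the test against a fold change of 1.5. The Y-linked gene Ddx3y was at or under 0.0912 CPM in sepsis and 0.102 CPM in control libraries.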
